A study of Mus musculus with 15 samples.

Results

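The genes described are 10 stress chaperones and regulators of protein folding in the mouse thalamus, chosen by name: Hspa1a, Hspa1b, Hsph1, Dnajb1 and Hspa8 of the cytosol, Hspa5, Pdia4 and Sdf2l1 of the endoplasmic reticulum (ER), and the transcription factors Xbp1 and Ddit3. They are 10 of the 29659 gene symbols in each library, and all 10 passed the filter on low values described with the tests. Thalamic polyA RNA was sequenced from 15 mice aged 4.5 months, all labelled as carrying a human APOE4 knock-in in place of mouse Apoe (1 library, labelled ELKO replicate 1, went against this label, as given with the library checks). The 5EL mice (n = 5; 5xFAD/APOE4+/+/Lilrb4a+/+) also carried the 5xFAD transgenes, which hold familial Alzheimer's disease mutations and are driven by the neuronal Thy1 promoter. The 5ELKO mice (n = 4; 5xFAD/APOE4+/+/Lilrb4a-/-) carried the same transgenes and lacked Lilrb4a, the microglial receptor that the study deleted. EL mice (n = 3) carried the APOE4 knock-in with Lilrb4a intact and no 5xFAD transgene, and ELKO mice (n = 3; APOE4+/+/Lilrb4a-/-) lacked Lilrb4a on that background. Each library is from whole thalamic tissue, so fewer cells of a type and less RNA per cell cannot be told apart.

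Cells meet unfolded proteins in the cytosol with the heat shock response, in which the transcription factor HSF1 binds repeats of GAA and TTC and drives Hsp70 (Hspa1a, Hspa1b), its nucleotide exchange factor Hsp110 (Hsph1) and its J-domain partner Hsp40 (Dnajb1), while the constitutive Hsp70 Hspa8 is made at high level in neurons. In the ER, the Hsp70 relative BiP (Hspa5) binds unfolded chains and holds the stress sensors in check. When BiP is drawn away, the sensors ATF6, IRE1 and PERK start the unfolded protein response, in which the ER stress element and spliced XBP1 drive Hspa5, the disulfide isomerase Pdia4 and the BiP cofactor Sdf2l1, and the PERK and ATF4 branch drives Ddit3 (CHOP). The comparisons ask whether these arms differed with Lilrb4a deletion or with the 5xFAD transgenes.

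The promoters of 5 of the members are shown because they hold the letters through which these arms act, or lack them: Hspa1a and Hspa1b as a near-identical pair, Hsph1 for the heat shock arm, Hspa5 for the ER arm and Ddit3 for the branch that varied apart from the rest. They are RefSeq sequences on GRCm38.p6, from 250 bases before to 50 bases after the start site, written 5′ to 3′ on the gene's own strand, at chr17:34972107-34972406 (minus strand, Hspa1a), chr17:34959189-34959488 (minus strand, Hspa1b), chr5:149636287-149636586 (minus strand, Hsph1), chr2:34771840-34772139 (plus strand, Hspa5) and chr10:127290543-127290842 (plus strand, Ddit3). Capitals mark matches to the motifs searched.
Hspa1a: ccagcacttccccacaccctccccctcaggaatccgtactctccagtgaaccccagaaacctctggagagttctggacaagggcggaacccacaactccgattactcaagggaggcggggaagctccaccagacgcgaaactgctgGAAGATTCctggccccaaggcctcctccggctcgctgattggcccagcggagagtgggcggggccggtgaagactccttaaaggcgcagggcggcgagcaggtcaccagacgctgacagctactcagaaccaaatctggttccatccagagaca
Hspa1b: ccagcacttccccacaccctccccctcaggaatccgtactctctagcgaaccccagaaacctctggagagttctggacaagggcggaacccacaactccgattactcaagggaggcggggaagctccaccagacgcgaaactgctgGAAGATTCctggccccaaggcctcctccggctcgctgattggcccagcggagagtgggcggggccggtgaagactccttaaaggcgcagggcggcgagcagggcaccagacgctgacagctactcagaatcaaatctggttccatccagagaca
Hsph1: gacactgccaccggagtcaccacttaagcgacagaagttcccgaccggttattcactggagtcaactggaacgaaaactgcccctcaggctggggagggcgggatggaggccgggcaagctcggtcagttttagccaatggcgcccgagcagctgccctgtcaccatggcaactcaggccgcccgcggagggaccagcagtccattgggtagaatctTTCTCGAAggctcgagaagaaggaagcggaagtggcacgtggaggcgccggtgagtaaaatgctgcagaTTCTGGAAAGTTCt
Hspa5: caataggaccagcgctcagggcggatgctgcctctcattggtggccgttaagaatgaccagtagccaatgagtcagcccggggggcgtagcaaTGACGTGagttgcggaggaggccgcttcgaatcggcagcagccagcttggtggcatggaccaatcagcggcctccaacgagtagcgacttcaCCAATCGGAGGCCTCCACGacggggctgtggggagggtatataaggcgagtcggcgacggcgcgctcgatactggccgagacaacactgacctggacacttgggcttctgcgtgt
Ddit3: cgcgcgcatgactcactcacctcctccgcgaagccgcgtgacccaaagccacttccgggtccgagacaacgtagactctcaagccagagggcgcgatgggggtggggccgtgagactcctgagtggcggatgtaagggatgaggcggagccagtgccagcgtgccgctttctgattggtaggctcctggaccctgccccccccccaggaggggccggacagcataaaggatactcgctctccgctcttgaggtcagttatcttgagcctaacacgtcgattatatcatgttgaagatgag

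Both strands of 32851 RefSeq promoters were searched, and all 10 members had at least 1. GAANNTTC, a pair of inverted heat shock repeats, stood in the Hspa1a, Hspa1b and Hsph1 windows and in 7.86% of all promoters. Its other orientation, TTCNNGAA, stood in Hsph1 alone among the members and in 8.52% of all promoters. The 3-unit forms GAANNTTCNNGAA or TTCNNGAANNTTC, which contain both of these, were in 0.603% of all promoters. Among the members only Hsph1 held one, TTCTGGAAAGTTC, which began 36 bases past the start site. The ER stress element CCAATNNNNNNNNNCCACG was in 0.119% of all promoters and, among the members, in Hspa5 alone, as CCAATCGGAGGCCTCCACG from position -65 to -47, with the start site as 0. Hspa5 also held TGACGTG, the core letters of an XBP1 and ATF6 site, which 2.01% of all promoters held. The second ER stress element ATTGGNCCACG (0.0365% of all promoters) and the C/EBP-ATF element TTGCATCA (0.895%) were in the window of no member. Exact letters were searched, so variants of each site were not counted, and a match is not a measured site.

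Hspa1a (GRCm38 chr17:34969190-34972156, minus strand) and Hspa1b (chr17:34956436-34959238, minus strand) are neighbouring genes of 2967 and 2803 exonic bases. Their promoter windows were the same at 296 of 300 bases and their longest open reading frames at 1918 of 1926 aligned bases (99.6%), while their whole transcripts aligned at 89.9% identity. The counting parameters given for these data do not include reads that map to several places, so reads from the shared frame could be lost from both and the level of each is uncertain. Counting did not use strand, and Gm20481 overlaps Hspa1a on the other strand in GENCODE M21. Ddit3 (chr10:127290774-127296288, plus strand) is overlapped on the other strand by Mars and Gm4189 and has 2 gene models under 1 symbol, which counting by gene name merges.

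The deleted gene Lilrb4a was near the bottom of the deposited log2 scale throughout, at 2.34 to 2.66 in 5EL and EL and at 2.33 in every 5ELKO and ELKO library, so it separated the labels narrowly. The 6 thalamic marker genes (Tcf7l2, Slc17a6, Rora, Lef1, Gbx2, Prkcd) were all above the filter, with a summed level of 15.30 (5EL replicate 2) to 15.996 (EL replicate 3). The summed level of 5 markers of the habenula, which borders the thalamus, was also highest in 5EL replicate 2 (11.79) and lowest in EL replicate 3 (9.37). Mouse Apoe ranged from 5.92 to 6.37 in 14 libraries and reached 10.9 in ELKO replicate 1, so the library labelled ELKO replicate 1 held more mouse Apoe than its knock-in label gives. EL replicate 3 and ELKO replicate 3 lay farthest from the gene medians (root mean square deviations of 0.277 and 0.180 log2 units, against at most 0.140 elsewhere). The summed level of 11 choroid plexus markers reached 13.998 in 5EL replicate 1 and 14.85 in ELKO replicate 2 and stayed between 10.04 and 11.14 elsewhere. The summed level of 7 hepatocyte markers was 8.32 to 9.005 in 5ELKO, 9.24 in EL replicate 1 and 7.57 to 7.96 in the remaining 10, and the part of these tissues in the results was not tested.

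Per kilobase of exon, the length-scaled log2 level averaged 13.12 for Hspa8, the constitutive Hsp70, 10.71 for Hspa5 and 10.21 for Hsph1. It was 9.04 for Xbp1, 8.73 for Dnajb1, 8.57 for Pdia4, 8.01 for Ddit3 and 7.93 for Sdf2l1, and lowest for Hspa1b (5.54) and Hspa1a (5.37). The order of neighbours was the same in all 15 libraries except for 3 pairs. Dnajb1 exceeded Pdia4 in 13 of 15 libraries, Ddit3 exceeded Sdf2l1 in 9 of 15 and Hspa1b exceeded Hspa1a in 11 of 15, so these neighbours did not keep 1 order. The mean difference was 0.15 ± 0.13 (SD) for Dnajb1 over Pdia4, and for the other pairs it was smaller than its SD (0.081 ± 0.20 and 0.17 ± 0.25).

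All further levels are the deposited log2 values. For the stress-inducible Hsp70 genes, Hspa1b was 6.999, 6.36, 7.08, 7.61 and 7.49 in 5EL, 7.56, 7.87, 6.82 and 6.73 in 5ELKO, 6.74, 6.67 and 6.42 in EL and 7.26, 7.25 and 6.49 in ELKO. The 5EL and 5ELKO values overlapped over most of their range, the 3 EL values lay at the lower end of it, and ELKO replicate 3 lay with EL. Hspa1a was 6.93, 6.62, 6.92, 7.18 and 7.17 in 5EL, 7.34, 7.30, 6.80 and 6.59 in 5ELKO, 6.78, 6.80 and 6.56 in EL and 7.08, 7.12 and 6.86 in ELKO. EL and ELKO did not overlap for Hspa1a, and both overlapped the 5xFAD groups. The plot of the members' values by library shows all 4 genotypes.

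**Figure D1:**
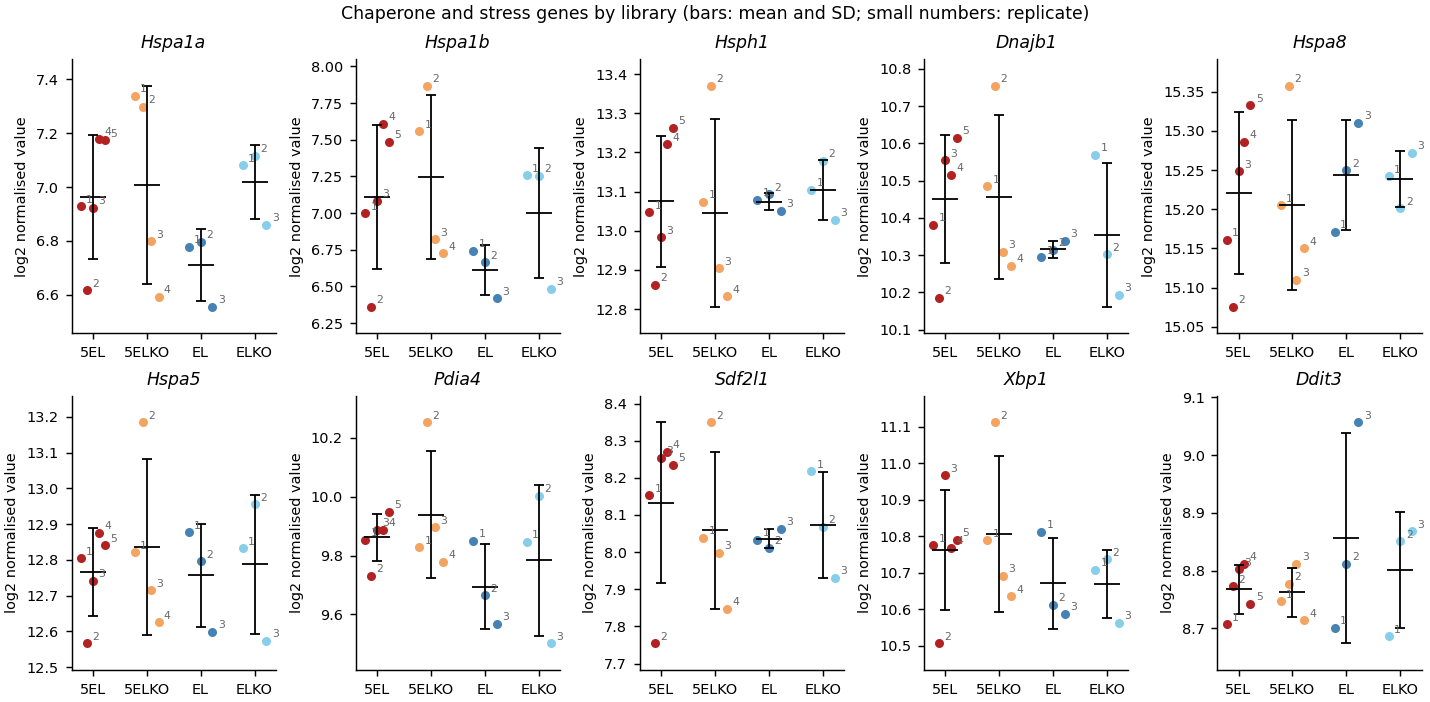
Deposited log2 value (vertical axis, a separate scale for each gene) of the 10 members in the 4 genotype groups (horizontal axis); points are libraries, small numbers are replicates, and bars are the mean and SD. 5ELKO replicate 2 is the highest 5ELKO point in 8 of 10 panels, and 5EL replicate 2 is the lowest 5EL point in 9 of 10.

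Hsph1, the Hsp110 that recharges Hsp70, was 13.05, 12.86, 12.98, 13.22 and 13.26 in 5EL, 13.07, 13.37, 12.90 and 12.83 in 5ELKO, 13.08, 13.09 and 13.05 in EL and 13.10, 13.18 and 13.03 in ELKO. Its EL and ELKO values lay within the range of the 5xFAD libraries, whose highest and lowest values were 5ELKO replicate 2 and 5ELKO replicate 4. Dnajb1, the Hsp40 that delivers clients to Hsp70, was 10.38, 10.19, 10.55, 10.51 and 10.62 in 5EL, 10.49, 10.75, 10.31 and 10.27 in 5ELKO, 10.29, 10.31 and 10.34 in EL and 10.57, 10.30 and 10.19 in ELKO. Again 5ELKO replicate 2 was highest, and 5EL replicate 2 and ELKO replicate 3 were lowest. Hspa8 was 15.16, 15.08, 15.25, 15.29 and 15.33 in 5EL, 15.21, 15.36, 15.11 and 15.15 in 5ELKO, 15.17, 15.25 and 15.31 in EL and 15.24, 15.20 and 15.27 in ELKO. Its whole range was 0.28 log2 units, the narrowest of the 10 members, and no group stood apart.

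In the ER, Hspa5 was 12.80, 12.57, 12.74, 12.88 and 12.84 in 5EL, 12.82, 13.18, 12.71 and 12.63 in 5ELKO, 12.88, 12.80 and 12.60 in EL and 12.83, 12.95 and 12.57 in ELKO. The value of 5ELKO replicate 2 exceeded every other library, and all 4 groups overlapped. Pdia4, which forms and rearranges disulfide bonds, was 9.85, 9.73, 9.89, 9.89 and 9.95 in 5EL, 9.83, 10.25, 9.90 and 9.78 in 5ELKO, 9.85, 9.66 and 9.57 in EL and 9.85, 10.003 and 9.50 in ELKO. Sdf2l1, which keeps BiP engaged with its clients, was 8.15, 7.75, 8.25, 8.27 and 8.23 in 5EL, 8.04, 8.35, 7.998 and 7.85 in 5ELKO, 8.03, 8.01 and 8.06 in EL and 8.22, 8.07 and 7.93 in ELKO. In both genes 5ELKO replicate 2 was again the highest library, and the lowest were ELKO replicate 3 for Pdia4 and 5EL replicate 2 for Sdf2l1.

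Xbp1, the transcription factor whose messenger RNA the sensor IRE1 splices, was 10.78, 10.51, 10.97, 10.77 and 10.79 in 5EL, 10.79, 11.11, 10.69 and 10.64 in 5ELKO, 10.81, 10.61 and 10.59 in EL and 10.71, 10.74 and 10.56 in ELKO. These values count all Xbp1 reads, so splicing was not measured. Ddit3, the pro-apoptotic factor CHOP, was 8.71, 8.77, 8.80, 8.81 and 8.74 in 5EL, 8.75, 8.78, 8.81 and 8.71 in 5ELKO, 8.70, 8.81 and 9.06 in EL and 8.69, 8.85 and 8.87 in ELKO. Its highest library was EL replicate 3, one of the libraries that lay apart over all genes, and its range was 0.104 log2 units within 5EL and 0.0982 within 5ELKO.

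In the comparison of Lilrb4a deletion among 5xFAD mice, no difference between 5ELKO and 5EL exceeded the spread between libraries for any of the 10 members. Among the cytosolic chaperones, the log2 difference (5ELKO minus 5EL) was 0.043 ± 0.16 (SE) for Hspa1a, 0.14 ± 0.27 for Hspa1b, -0.030 ± 0.11 for Hsph1, 0.0053 ± 0.10 for Dnajb1 and -0.015 ± 0.071 for Hspa8. In the ER arm it was 0.071 ± 0.10 for Hspa5, 0.077 ± 0.085 for Pdia4, -0.075 ± 0.12 for Sdf2l1 and 0.046 ± 0.10 for Xbp1, and for Ddit3 it was -0.0048 ± 0.045. Their nominal p-values ranged from 0.381 to 0.960 and every adjusted p was 0.999 (limma with a mean-variance trend and Benjamini-Hochberg adjustment over 15743 genes, those that reached 3.32 on the log2 scale in 4 or more of the 9 libraries). At a nominal p under 0.05, 0 of 10 members and 2.49% of all genes were called. At an adjusted p under 0.05, 0 of 10 members and 0.0191% of genes (3 genes) were called. No member had groups that did not overlap, against 1.06% of genes. The 95% intervals were widest for Hspa1b (-0.45 to 0.72, n = 5 and 4) and narrowest for Ddit3 (-0.10 to 0.094), so differences inside those bounds are not excluded by these values. Without 5ELKO replicate 2 the differences of 6 members turned negative, to -0.045 for Hspa5 and -0.094 for Dnajb1 among them, and without 5EL replicate 2 those of Hspa1a (-0.044), Hspa1b (-0.051), Dnajb1 (-0.061) and Xbp1 (-0.018) did. The difference of Sdf2l1 was -0.17 without either of these libraries and -0.0048 without 5ELKO replicate 4. Markers of other tissue moved in this comparison. Of 7 hepatocyte markers 6 were higher in 5ELKO at a nominal p under 0.05 and 2 at an adjusted p (median 0.31). Of 11 choroid plexus markers 0 lay above 0 (median -0.30), and of 5 habenular markers 0 did (median -0.22), with 0 at a nominal p in both. Their part was not tested.

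**Figure D2:**
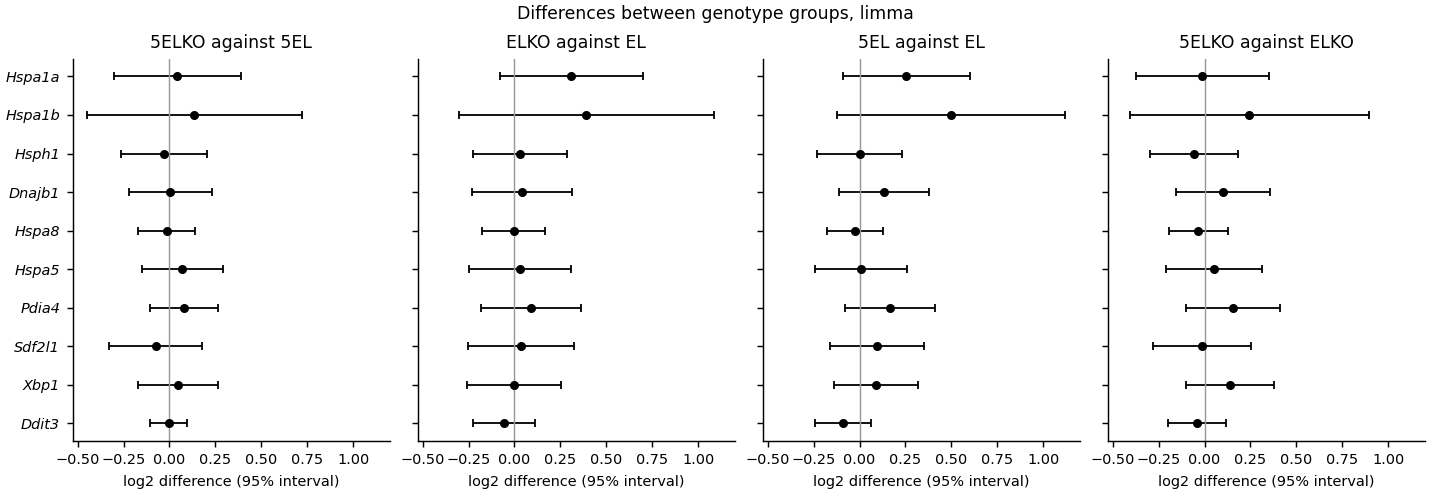
Log2 difference with its 95% interval (horizontal axis, limma) for each member (vertical axis) in 4 comparisons of genotype groups, the first-named group minus the second. Every interval includes 0, and those of Hspa1a and Hspa1b are the widest.

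Without the 5xFAD transgenes, the Hsp70 pair was higher in ELKO than in EL in every pair of like-numbered mice. Hspa1a differed by 0.30, 0.32 and 0.31 log2 units in replicates 1, 2 and 3, and Hspa1b by 0.51, 0.59 and 0.067. In the fit without a block the mean difference was 0.31 ± 0.18 (SE; adjusted p = 0.998, limma) for Hspa1a and 0.39 ± 0.33 (adjusted p = 0.998, limma) for Hspa1b. With the replicate number as a block on these 6 libraries, since like-numbered EL and ELKO libraries deviated together, the SE fell to 0.066 for Hspa1a (adjusted p = 0.690, limma) and to 0.11 for Hspa1b (adjusted p = 0.690, limma). No label states this pairing, which was taken from these same data. The pair numbered 2 did not correlate best with its own number, so the smaller SE depends on an uncertain pairing. At a nominal p under 0.05, 0 of 10 members were called without the block, against 2.35% of genes, and 2 of 10 with it, against 7.06% of genes. Neither fit called a gene at an adjusted p under 0.05 (0% of 15804 genes without the block). Hspa1a was the only member whose groups did not overlap, against 4.59% of genes, and an exact test that exchanges labels within the 3 pairs cannot give a two-sided p under 0.25. Leaving out each EL or ELKO library in turn gave differences of 0.23 to 0.39 for Hspa1a and 0.26 (without the library labelled ELKO replicate 1) to 0.65 (without ELKO replicate 3) for Hspa1b. The other 8 members had nominal p-values of 0.497 or more without the block and 0.331 or more with it (limma). Markers of other tissue moved in the same comparison. The summed level of 5 erythroid markers, of which 3 were tested, was 7.22 to 9.44 in EL and 6.80 to 6.95 in ELKO, and all 3 were lower at a nominal p under 0.05 (median difference -1.52). Of 6 thalamic markers 0 were higher and 1 was lower at a nominal p, and of 5 habenular markers all 5 lay above 0 (median 0.44) with 0 at a nominal p. Of 11 choroid plexus markers all 11 lay above 0 (median 0.61), and of 7 hepatocyte markers 0 did (median -0.23), with 0 at a nominal p in both. Their part in the Hsp70 values was not tested.

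Between 5EL and EL, which differ by the transgenes, the largest differences were again in the Hsp70 pair but did not exceed the spread between libraries. Hspa1b was higher in 5EL by 0.50 ± 0.29 log2 units (SE; 1.41-fold, adjusted p = 0.637, limma) and Hspa1a by 0.25 ± 0.16 (1.19-fold, adjusted p = 0.644, limma). Pdia4 differed by 0.17 ± 0.11 (0.10 without EL replicate 3) and Dnajb1 by 0.13 ± 0.11 (0.20 without 5EL replicate 2). At a nominal p under 0.05, 0 of 10 members and 7.7% of genes were called, at an adjusted p 0 of 10 and 0%, and groups did not overlap for 0 members and 3.26% of genes. Leaving out 5EL replicate 2 raised the count to 2 members, Hspa1b at a difference of 0.69 and Hspa1a at 0.34 (adjusted p = 0.758 for both, limma). Here too markers of other tissue moved, with 2 of 3 erythroid (median -1.20) and 3 of 6 thalamic markers (median -0.22) lower in 5EL at a nominal p. Higher in 5EL at a nominal p were 5 of 5 markers of disease-associated microglia (median 0.52) and 2 of 5 microglial markers (median 0.13). Above 0 lay 5 of 5 habenular (median 0.63), 11 of 11 choroid plexus (median 0.42) and 0 of 7 hepatocyte markers (median -0.20). None of these 3 lists had a marker at a nominal p, and the part of all these markers was not tested.

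Between 5ELKO and ELKO, Hspa1b differed by 0.24 ± 0.30 log2 units (SE), Pdia4 by 0.16 ± 0.12 and Xbp1 by 0.14 ± 0.11, with nominal p-values of 0.434, 0.214 and 0.237 (limma). At a nominal p under 0.05, 0 of 10 members and 2.37% of genes were called, at an adjusted p 0 and 0%, and groups did not overlap for 0 members and 3.4% of genes. Single libraries moved these differences. Without ELKO replicate 3 they were -0.012 for Hspa1b, 0.014 for Pdia4 and 0.084 for Xbp1, and without 5ELKO replicate 2 they were 0.036, 0.051 and 0.036. In the other direction, Hspa1b was 0.37 without the library labelled ELKO replicate 1 or without ELKO replicate 2, and 0.42 without 5ELKO replicate 4, and Pdia4 was 0.27 without ELKO replicate 2. Of 7 hepatocyte markers 6 were higher in 5ELKO at a nominal p (median 0.31). So were 4 of 5 markers of disease-associated microglia (median 0.54) and 1 of 5 microglial markers (median 0.18). Of 11 choroid plexus markers 0 lay above 0 (median -0.58), and the part of these markers was not tested. The interaction, which tests whether the effect of Lilrb4a deletion differed with the transgenes, called 0 of 10 members at a nominal p (2.73% of genes) and 0 at an adjusted p (0% of genes). The comparisons of 2 groups share libraries: 5EL enters 2 of them, and so does each other group. Every group also enters the interaction.

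Other genes of these pathways were counted from 6 lists, of which 123 genes were tested, with HSF1-linked cytosolic chaperones, mitochondrial chaperones, ER chaperones and foldases, ER-associated degradation, sensors and transcription factors of the unfolded protein response, and the ATF4 and CHOP branch. None passed the adjusted threshold in any comparison. At a nominal p under 0.05, 2 were higher and 0 lower in 5ELKO against 5EL, 3 higher and 1 lower in ELKO against EL, 4 higher and 2 lower in 5EL against EL, 1 higher and 1 lower in 5ELKO against ELKO, and 0 and 1 in the interaction, which is 1.63%, 3.25%, 4.88%, 1.63% and 0.813% of the listed genes, beside 2.49%, 2.35%, 7.7%, 2.37% and 2.73% of all genes. The median log2 difference of the listed genes lay between -0.011 and 0.018 in all 5, beside medians of -0.0017 to 0.0033 over all genes tested.

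In 5ELKO against 5EL the 2 were Hspa2, a testis-enriched Hsp70 also made in brain, by 0.19 ± 0.057 log2 units (SE; adjusted p = 0.999, limma), and Slc7a11, the cystine transporter driven by ATF4, by 0.18 ± 0.068 (adjusted p = 0.999, limma). In ELKO against EL the difference was 0.25 for Atf5, an ATF4 target, 0.21 for the Hsp70 co-chaperone Bag3, 0.17 for Ern1, which encodes IRE1, and -0.20 for the Hsp40 gene Dnajb5. In 5EL against EL it was 0.39 for the small heat shock protein gene Hspb8, 0.22 for the kinase gene Eif2ak2, 0.13 for Atf3, 0.091 for the disulfide isomerase gene P4hb, -0.17 for Dnajb5 and -0.13 for the ER-resident factor gene Cdnf. In 5ELKO against ELKO it was 0.15 for Atf3 and -0.15 for Sdf2, the relative of Sdf2l1, and in the interaction -0.23 for Atf5.

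The Hsp70 pair varied more between libraries of the same genotype than nearly all other genes did. Each value was expressed as its deviation from its group mean, which removes every genotype difference, and the pooled within-group SD was 0.463 log2 units for Hspa1b and 0.252 for Hspa1a, above 99.3% and 96.1% of the 15804 genes tested. Among genes within 1 log2 unit of the same level they stood above 99.1% and 93.2%. Hsph1, Dnajb1, Hspa5, Pdia4, Sdf2l1 and Xbp1 had within-group SDs of 0.163 to 0.182, above 84.7% to 89.9% of genes of like level. Hspa8 (0.091) and Ddit3 (0.095) did not stand out, at 37.5% and 43.2%. Genotype group took 1.96% (Hsph1) to 25.2% (Pdia4) of the variance of a member, beside a median of 17.7% over all genes.

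**Figure D3:**
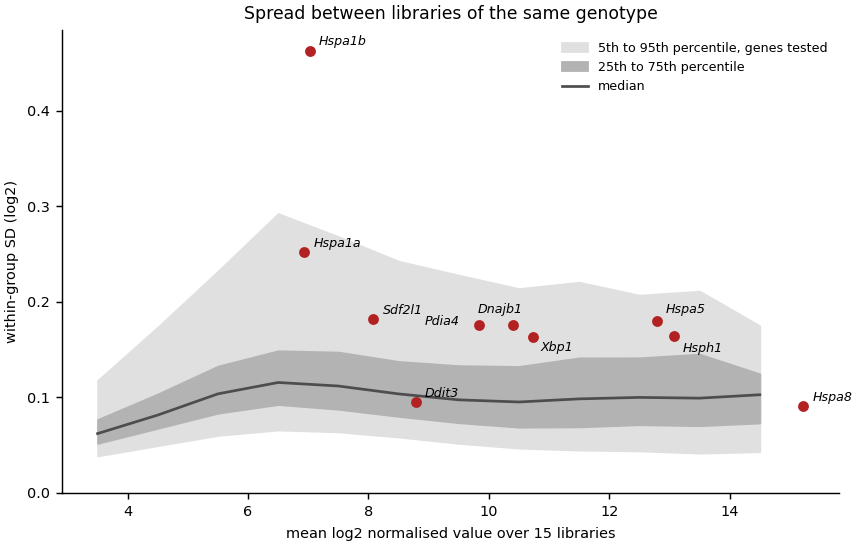
Within-group SD in log2 units (vertical axis) against the mean deposited log2 value over 15 libraries (horizontal axis); red points are the members, the line is the median and the shaded bands are percentiles of all genes tested, in bins of 1 log2 unit with at least 20 genes. Hspa1b lies above the 95th percentile band, and Hspa8 and Ddit3 lie near the median line.

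Across these deviations, all members but Ddit3 varied together. Over the 10 pairs of cytosolic chaperones Pearson's r had a median of 0.80 and a range of 0.61 to 0.94, and over the 6 pairs of Hspa5, Pdia4, Sdf2l1 and Xbp1 a median of 0.82 and a range of 0.69 to 0.93. Across the compartments, the 20 pairs had a median of 0.75 and a range of 0.32 to 0.93. Ddit3 had r between -0.19 and 0.30 with the cytosolic chaperones and between -0.29 and -0.016 with the ER genes. For comparison, the median r over all genes tested was -0.013 with Hsph1 and 0.0075 with Hspa5. These points share their libraries and 4 group means, n is 15, and genes are not independent replicates.

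**Figure D4:**
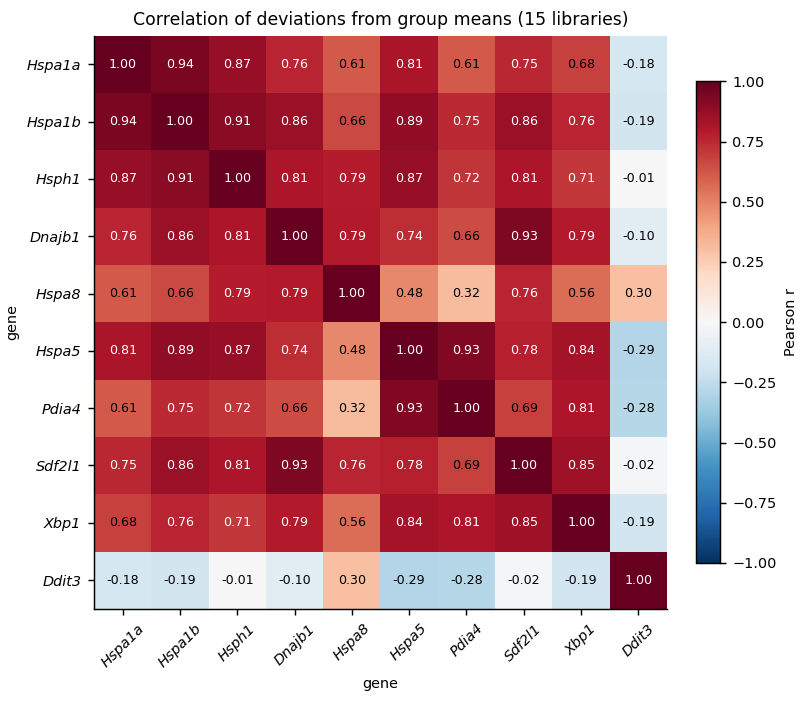
Pearson's r between the members (both axes), computed over deviations from group means in 15 libraries; red is positive and blue negative. The block of 9 members other than Ddit3 is positive throughout, and the Ddit3 row and column lie between -0.29 and 0.30 beside the other members.

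For 10 pairs chosen to span the 2 arms, correlations were also computed on the values themselves over the 15 libraries, with permutation p-values from 100000 resamples adjusted over the 10 pairs. Hspa1a and Hspa1b, which may both lose reads from their shared frame, had r = 0.93 (adjusted permutation p = 1e-04, the smallest that the adjustment allows) and rho = 0.92 (adjusted permutation p = 0.0002). Hspa1b and Hsph1 had r = 0.75 and rho = 0.70, Hsph1 and Dnajb1 r = 0.71 and rho = 0.66, and Hsph1 and Hspa8 r = 0.79 and rho = 0.70. Within the ER arm, Hspa5 had r = 0.86 and rho = 0.73 with Pdia4, r = 0.81 and rho = 0.75 with Xbp1, and r = 0.72 and rho = 0.69 with Sdf2l1. Between the arms, Hspa5 and Hsph1 had r = 0.83 and rho = 0.84 (adjusted permutation p = 0.000433 and 0.0007). The adjusted permutation p-values of the other 6 positive pairs ranged from 0.000433 to 0.00292 for r and from 0.0049 to 0.0104 for rho. Hspa5 and Ddit3 had r = -0.30 and rho = -0.28, with adjusted permutation p-values of 0.255 and 0.322.

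Leaving out the 2 libraries farthest from the median of the first gene gave r = 0.91 for Hspa1a and Hspa1b, 0.59 for Hspa1b and Hsph1, 0.71 for Hsph1 and Hspa8, 0.78 for Hspa5 and Pdia4, and 0.67 for Hspa5 and Hsph1. For Hsph1 and Dnajb1 it fell to 0.55 (permutation p = 0.05003), for Hspa5 and Xbp1 to 0.55 (permutation p = 0.0515) and for Hspa5 and Sdf2l1 to 0.52 (permutation p = 0.0691), all just above 0.05. These relations were weaker without the libraries left out, 5ELKO replicates 2 and 4 in the first and replicate 2 of 5EL and of 5ELKO in the others. Over deviations from the group means, with no library left out, r was 0.81, 0.84 and 0.78 for these pairs. These values therefore do not show how far the relations rest on those libraries. Leaving out the library labelled ELKO replicate 1 was a setting chosen after seeing the data. Without it the 9 correlations with a permutation p under 0.05 stayed under it, and r moved by less than 0.02 in all 10 pairs. No sequencing batch is given for these libraries, so none could be set beside the relation.

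The libraries at the ends of the range were the same for most members. 5ELKO replicate 2 was the highest of all 15 libraries for 8 of 10 members, against 8.25% of all genes, and lay 0.34 log2 units above its group mean over the 5 cytosolic chaperones and 0.31 above it over Hspa5, Pdia4, Sdf2l1 and Xbp1. 5ELKO replicate 4 lay 0.28 and 0.19 below that mean, and was the lowest 5ELKO library for 9 of 10 members, against 26.4% of all genes. 5EL replicate 2 lay 0.34 and 0.24 below the 5EL mean and was the lowest 5EL library for 9 of 10 members, against 20.2% of all genes. This library was also the lowest of all 15 for the summed thalamic markers and the highest for the summed habenular markers, whose part was not tested. In ELKO, replicate 3 lay 0.18 and 0.19 below the mean and was lowest of the group for 8 of 10 members, against 40.0% of all genes. The high and the low end both held 5ELKO libraries, and Ddit3 deviated by at most 0.050 in any 5ELKO library.

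**Figure D5:**
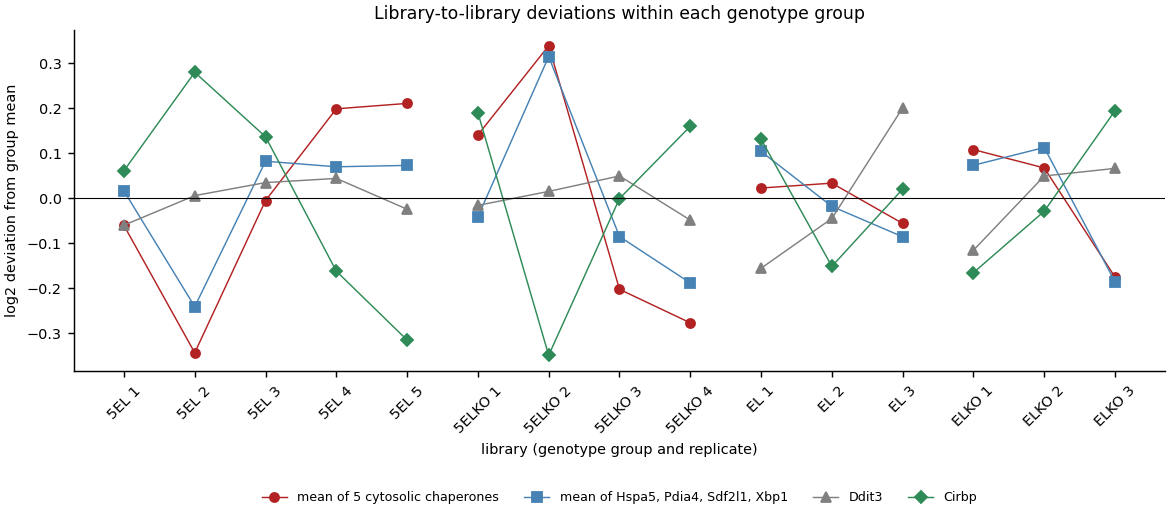
Deviation from the group mean in log2 units (vertical axis) of the mean of 5 cytosolic chaperones, the mean of Hspa5, Pdia4, Sdf2l1 and Xbp1, Ddit3 and Cirbp in each of 15 libraries (horizontal axis); lines join libraries of 1 group for legibility and replicates have no order. Both chaperone means peak in 5ELKO replicate 2, where Cirbp is lowest, and Ddit3 departs most in EL replicate 3.

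The cold-inducible RNA-binding protein genes ran the other way. Cirbp was 9.94, 10.16, 10.02, 9.72 and 9.56 in 5EL, 10.02, 9.48, 9.83 and 9.99 in 5ELKO, 9.97, 9.69 and 9.86 in EL and 9.68, 9.82 and 10.04 in ELKO. The lowest value was in 5ELKO replicate 2 and the highest in 5EL replicate 2, the libraries with the highest and, in its group, the lowest chaperone levels. Hsph1 and Cirbp had r = -0.80 and rho = -0.80 over 15 libraries (adjusted permutation p = 0.00086 and 0.00153), r = -0.73 without 5ELKO replicates 2 and 4, and r = -0.82 over deviations from group means. Rbm3, the other gene of this list, had r = -0.48 with the mean of the cytosolic chaperones and r = -0.63 with the mean of the ER genes over the deviations.

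The variation extended unevenly over the pathway lists. Of 34 HSF1-linked cytosolic chaperones and co-chaperones, 16 (47.1%) had r above 0.5 with Hsph1 over the deviations, against 9.37% of all genes tested, and 0 had r below -0.5. Hspb1, a small heat shock protein gene chosen after its values were seen, had r = 0.96 and reached 8.58 in 5ELKO replicate 2 and 7.72 in 5EL replicate 2. Of 23 ER chaperones and foldases, 12 (52.2%) had r above 0.5 with Hspa5, against 13.8% of all genes. These shares were not particular to the gene of each arm. With Hsph1, 12 of the 23 ER chaperones (52.2%) had r above 0.5, and with Hspa5, 13 of the 34 cytosolic genes (38.2%) did. The count with Hspa5 was 6 of 21 genes of ER-associated degradation and translocation. It was 3 of 10 sensors and transcription factors of the unfolded protein response and 4 (16.0%) of 25 genes of the ATF4 and CHOP branch. Of 10 mitochondrial chaperones and proteases, 1 had r above 0.5 with Hsph1 and 1 with Hspa5. Some of these lists also ran the other way. With Hspa5, r lay below -0.5 for 3 genes of ER-associated degradation and translocation and 4 of the ATF4 and CHOP branch. The count below -0.5 was 2 for the mitochondrial list and 0 for the ER chaperones and the sensors, against 12.8% of all genes. Counts of genes that vary together are descriptions of these libraries, since the genes of a list share them.

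Outside the members, the 5 genes most like the mean of the cytosolic chaperones over the deviations were P4ha1 (r = 0.94), which encodes a collagen prolyl hydroxylase subunit, Kpna1, Uhrf2, Ints8 and Top1 (r = 0.92 each). The 5 most like the mean of Hspa5, Pdia4, Sdf2l1 and Xbp1 were Serpinh1 (r = 0.94), the collagen chaperone Hsp47, the disulfide isomerase gene Pdia6 and Stat2 (r = 0.87 each), and Rnf180 and P4ha1 (r = 0.86 each). They are the top of a ranking of all genes tested over 15 libraries.

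Cell type markers moved with part of this variation. The summed level of the 3 oligodendrocyte markers Mbp, Mog and Mag was 15.80 to 16.14 in 5EL, 15.80 to 16.18 in 5ELKO, 15.78 to 16.26 in EL and 15.84 to 16.21 in ELKO. Its deviations had r = -0.78 with those of Hspa5 and -0.44 with those of Hsph1, and 3 of 3 markers had r below -0.5 with Hspa5, against 12.8% of all genes. It was lowest of the 5ELKO libraries in replicate 2 (15.80) and was 16.10 in 5EL replicate 2, near the top of that group, and its part in the result was not tested. The summed neuronal markers (3 genes) had r = 0.44 with Hsph1 and -0.00018 with Hspa5, and the summed choroid plexus, hepatocyte and microglial markers had r between -0.29 and 0.30 with both genes. The 8 glucocorticoid-responsive genes and the 11 tested immediate early genes had no member with r above 0.5 with Hsph1 or Hspa5. Of the glucocorticoid-responsive genes, 2 of 8 (25%, against 12.8% of all genes) had r below -0.5 with Hspa5, Sult1a1 at -0.66 and Plin4 at -0.52, both named after their values were seen.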

How the data were processed

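Thalamic RNA of 15 mice was measured, and the sample labels give each group and replicate number. Reads were trimmed by the authors (Trimmomatic 0.39), mapped to GRCm38 (HISAT2 2.2.1), sorted (SAMtools 1.16.1) and counted as pairs per gene name without strand (featureCounts 2.0.3), with FastQC 0.11.9 and DESeq2 1.38.3 also among the tools in the submitters' processing notes. The authors deposited log2 values for 29659 genes per library, from -2.27 to 18.98. The transform and the annotation release are not given in the sources used here. The values give no counts, so the number of reads behind a single value is unknown. Low genes may be shrunk towards their mean, and fold changes of low genes may be understated. For 5EL and 5ELKO libraries the paper's supplement gives total reads, alignment rates and RNA integrity numbers. It gives none for EL or ELKO, and it lists more 5ELKO libraries than are described here. Whether depth or RNA integrity had a part in the variation between libraries was not tested.

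Groups were compared with limma 3.58.1 in R 4.3.3 (trend = TRUE, Benjamini-Hochberg). 5ELKO against 5EL was fitted on 9 libraries (genes at a log2 value of 3.32, or 10 on the linear scale, in at least 4), and the other comparisons on all 15 (at least 3 libraries, 15804 genes). The code was tested on simulated data. Replicates are separate labelled libraries, and p-values measure the spread between them. Like-numbered EL and ELKO libraries had correlated deviations over 15804 genes (r = 0.45, 0.33 and 0.74 for numbers 1, 2 and 3), although the pair numbered 2 did not correlate best with its own number. Each r was over 0.1, so the numbers were taken to pair these libraries on the data alone, and blocked values are given. Correlations used permutation tests in Python 3.11.15 with scipy 1.17.1, transcripts were aligned with Biopython 1.88, coordinates come from GENCODE M21 and promoters from RefSeq on GRCm38.p6. The members, lists and tests were chosen with earlier results of these data known. The text names the 10 members, up to 2 genes with the smallest nominal p per list and comparison, and the 5 genes most like each arm, and other genes were named after their values were seen. The alternatives tried were the filter, the limma settings, recentring, covariates, the block and leaving out libraries. Of the oligodendrocyte list, 3 markers were used, and a further one is not reported here.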

Additional observations from a re-analysis of the deposited data

Results flagged for a closer look

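The 10 members were examined in the groups of 4 and 5 libraries, which makes 20 sets of values, and 1 stood out. In 5EL, Sdf2l1 was 7.75 in replicate 2 and 8.15 to 8.27 in the other 4 libraries, so the gap below the rest took 0.773 of the group's range, above the critical value of 0.71 for 5 samples. Chance gives about 1 such set in 20. The same library was the lowest 5EL library for 9 of 10 members.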

How the results depend on the processing

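No member passed an adjusted p under 0.05 in any comparison under any setting run. Settings that changed other counts or directions are given here, and the cause was not tested. Without the filter, the genes at a nominal p under 0.05 rose to 912 for 5ELKO against 5EL (392 with it), 916 for ELKO against EL (372), 935 for 5ELKO against ELKO (375) and 964 for the interaction (432), and 1 gene passed the adjusted threshold in 5ELKO against 5EL (3 with the filter) and 1 in 5EL against EL (0). In 5ELKO against 5EL, the planned covariate Xist was at the bottom of the scale in every library and above 0.20 in 5ELKO replicate 3 alone. Ddx3y, a gene of the Y chromosome, was 10.34 to 10.68 in all 15 libraries, so every library had the pattern of a male mouse. The covariate therefore marked 5ELKO replicate 3 and no difference in sex. With Xist as a covariate Hsph1 was 0.0056 and Hspa8 0.012 (0.017 for both without that library). Fitting all 15 libraries at once left 0 genes at an adjusted p. The replicate block there, which drops the unpaired 5EL replicate 5, left 1 such gene, and Hsph1 at 0.017 and Hspa8 at 0.013 were the values without that library. With the replicate block, 2 members and 1110 genes had a nominal p under 0.05 in ELKO against EL, with Hspa1a and Hspa1b at differences of 0.31 and 0.39, and 2 members (Hspa1b at 0.42, Xbp1 at 0.19) and 246 genes in 5ELKO against ELKO, where the block drops the unpaired 5ELKO replicate 4. Without that library and with no block the differences were the same, with 0 members and 269 genes. Like-numbered libraries outside EL and ELKO correlated at -0.32 to 0.23, and not every library there correlated best with its own number. In 5EL against EL, r was 0.054, 0.23 and 0.19 for numbers 1, 2 and 3, and numbers 1 and 3 correlated best with their own. Whether the numbers pair libraries outside EL and ELKO is therefore not known. Without 5EL replicate 1 and ELKO replicate 2 together, 186 genes had a nominal p under 0.05 in ELKO against EL. Without EL replicate 3 and ELKO replicate 3 together, a setting chosen after seeing the data, 431 did in 5EL against EL (1217 with them), and Hspa1b in 5ELKO against ELKO was -0.012. Leaving out each library in turn gave 0 to 4 genes at an adjusted p in 5ELKO against 5EL (0 without 5EL replicates 3, 4 or 5 or 5ELKO replicates 1 or 4), with differences from -0.067 to 0.18 for Hspa1a, -0.072 to 0.31 for Hspa1b, -0.14 to 0.041 for Hsph1, -0.094 to 0.066 for Dnajb1, -0.066 to 0.017 for Hspa8, -0.045 to 0.14 for Hspa5, -0.027 to 0.13 for Pdia4, -0.17 to -0.0048 for Sdf2l1, -0.056 to 0.10 for Xbp1 and -0.021 to 0.011 for Ddit3. It gave 192 to 1830 genes at a nominal p in ELKO against EL (1830 without EL replicate 1, 1374 without ELKO replicate 3, 213 without EL replicate 3, 192 without ELKO replicate 2) and 0 to 1 at an adjusted p. In 5EL against EL it gave 0 to 2 members (1 without EL replicate 1), 355 to 3204 genes at a nominal p and 0 to 31 at an adjusted p (3204 and 31 without EL replicate 1, 355 without EL replicate 3). In 5ELKO against ELKO it gave 269 to 790 genes (790 without ELKO replicate 1), 0 to 2 at an adjusted p (2 without EL replicate 1) and -0.012 to 0.42 for Hspa1b. In the interaction it gave 267 to 1228 genes (1228 without EL replicate 1, 850 without ELKO replicate 3, 267 without ELKO replicate 2). Without the 2 farthest libraries, r fell to 0.55 for Hsph1 and Dnajb1, to 0.55 for Hspa5 and Xbp1 and to 0.52 for Hspa5 and Sdf2l1. Of 367 alternative values of the members' differences, 330 kept their direction and side of the threshold, 6 passed a nominal p under 0.05 and 31 turned direction. Of 331 for the 15 differences of listed genes named, 224 kept both, 107 lost a nominal p under 0.05 and 0 turned direction, and each of the 15 lost it under at least 1 setting.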

Other observations

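Some genes ran against the chaperones across libraries within genotypes. With the mean of the 5 cytosolic chaperones, the lowest correlations over the deviations of 15 libraries were those of Arglu1 (r = -0.91) and Rnpc3 (r = -0.91), both genes of RNA splicing, and Tmem175 (r = -0.90), a lysosomal potassium channel gene. With the mean of Hspa5, Pdia4, Sdf2l1 and Xbp1 the lowest were 4931406C07Rik and BC003331 (r = -0.94 each). They were followed by Rbmx, which encodes a nuclear RNA-binding protein, and Nmral1 (r = -0.93 each), and then Rhog (r = -0.92). These genes were named after their values were seen and are the end of a ranking of all genes tested.

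Among 16 circadian clock genes, 5 had r above 0.5 with Hsph1 (31.2%, against 9.37% of all genes) and 2 with Hspa5 (12.5%, against 13.8%), and the time of day at which each mouse was sampled is not given in the sources used here.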
